A study of Mus musculus with 2 samples.

Results

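The cells described here are the pluripotent-like cells of a reprogramming culture, divided into those with and those without a detected Dppa3 molecule. They were chosen by measured values: a cell was taken when it had a value above 0 for at least 3 of the 5 pluripotency genes Utf1, Tdgf1, Tdh, Nanog and Dppa4, and it was put in the Dppa3-positive or Dppa3-negative group by whether its Dppa3 value was above 0. This gave 557 of 7023 cells, of which 300 were Dppa3-positive and 257 Dppa3-negative. Dppa3 and the 5 selection genes are therefore described without a test, and every other gene was compared within each library.

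The cells came from mouse embryonic fibroblasts carrying STEMCCA, a doxycycline-inducible cassette of Pou5f1, Sox2, Klf4 and Myc, cultured with doxycycline, LIF, serum and ascorbic acid and profiled unsorted on day 16 by droplet 3' RNA-seq, which counts unique molecular identifiers (UMIs). There were 2 libraries, replicate 1 and replicate 2, of the same time point and treatment. Replicate 1 gave 160 of 3109 cells (89 positive and 71 negative), and replicate 2 gave 397 of 3914 cells (211 positive and 186 negative). The study describes 2 independent STEMCCA mouse systems for its day 16 droplet data. The labels do not say which system each library came from, or whether the libraries came from separate cultures or animals. Differences between the libraries may therefore be of mouse system, of culture or technical, and these cannot be told apart. RNA of the cassette and of the cell's own Pou5f1, Sox2, Klf4 and Myc was not told apart. The libraries shared 12 cell barcodes, and 0 of the selected cells carried a shared one.

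Dppa3, also called Stella or PGC7, encodes a small protein that is abundant in oocytes, early embryos and primordial germ cells and is known for protecting DNA from loss of methylation in the zygote and for restraining the maintenance methylation factor UHRF1. In mouse embryonic stem cells grown with serum it is expressed unevenly from cell to cell, and it marks cells close to the naive state, the state of the early inner cell mass. In reprogramming it is among the later pluripotency genes to appear. The comparison asked which other genes differed between pluripotent-like cells in which Dppa3 RNA was and was not detected at day 16.

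Dppa3 lies on chromosome 6 from 122626410 to 122630272 on the plus strand (GRCm38). The selected cells held 386 Dppa3 UMIs in replicate 1 and 803 in replicate 2. A Dppa3 UMI was found in 55.6% of the selected cells of replicate 1 (95% exact binomial interval 47.6 to 63.5) and in 53.1% of those of replicate 2 (48.1 to 58.1), a mean of 54.4% ± 1.75 (SD, n = 2). The intervals overlap, which is not a test, and the libraries were not tested against each other in this share. Intervals and limits given here cover counting error only.

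The share depended on depth and differed with how strictly cells were chosen. With every cell thinned to 10000 UMIs it was 41.3% and 39.2%, and at 4500 UMIs it was 26.9% and 26.2%. The division into positive and negative cells thus depends on how many UMIs a cell had, which is why depth was equalised before the groups were compared. Among cells with exactly 3 selection genes, the least that the rule admits, Dppa3 was found in 0 of 13 cells of replicate 1, which allows a share of up to 23.1%, and in 7 of 31 cells of replicate 2. Among cells with all 5 it was found in 73 of 120 and 150 of 271 cells. Just outside the rule, with 2 selection genes, it was found in 1 of 87 and 3 of 100 cells. These classes also differed in depth. Median UMIs were 20184 and 16079 with 2 selection genes, 22813 and 13588 with 3, and 29964 and 28312 with all 5. The parts of depth and selection in these shares were not separated.

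As a background for free RNA, Dppa3 UMIs were found in 0.292% of the cells of replicate 1 without any selection gene (6 of 2057) and in 0.719% of those of replicate 2 (18 of 2505). Those cells had median depths of 14370 and 13145 UMIs, against 28354 and 26097 in the selected cells. Even at 4500 UMIs the selected cells thus lay far above the background.

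**Figure D1:**
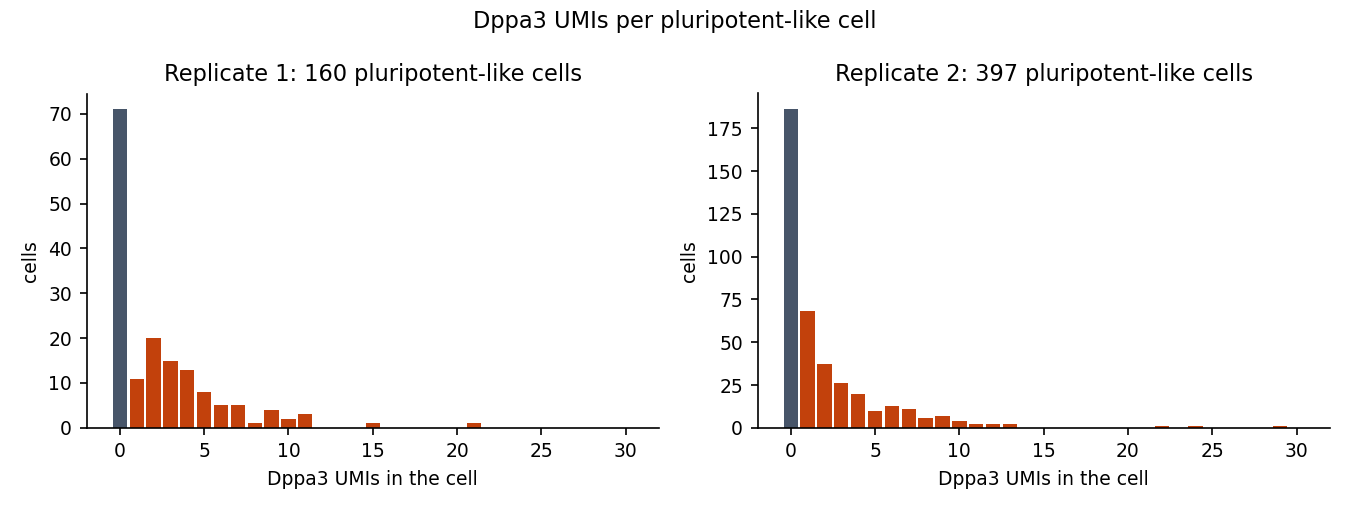
Dppa3 UMIs per selected cell in each library, with the number of cells on the y axis. The grey bar holds the 71 and 186 Dppa3-negative cells and the orange bars the positive cells, whose counts run up to 21 and 29 UMIs.

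Within the positive cells the amount of Dppa3 RNA varied widely. The median was 3 UMIs in each library, the highest count was 21 in replicate 1 and 29 in replicate 2, and 11 and 68 positive cells, those just inside the threshold, had a single UMI. Per 10000 UMIs the positive cells ranged from 0.229 to 8.72 with a median of 1.10 in replicate 1, and from 0.195 to 6.27 with a median of 0.990 in replicate 2. Gdf3, a growth factor gene beside Dppa3 on chromosome 6, had similar totals (396 and 751 UMIs) but was found in more cells (81.9% and 76.8%) and never exceeded 8 and 9 UMIs in a cell. Peg3 (371 and 830 UMIs) was found in 76.2% and 73.6% of cells with at most 13 and 17 UMIs, and Nr0b1 (343 and 614 UMIs) in 70.6% and 61.7% with at most 10 and 13. Dppa3 was found in fewer cells, with a higher maximum, than each of these 3 genes.

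For the comparison, positive and negative cells were paired by UMI total within each library, which gave 70 pairs in replicate 1 and 173 in replicate 2. The median depths were then 27674 and 27193 UMIs in replicate 1 and 25484 and 24727 in replicate 2. Mitochondrial RNA made up between 3.39% and 3.68% of UMIs in all 4 groups. All levels below are means over these paired cells in UMIs per 10000 unless stated, and differences are positive minus negative on the scale of log2(level + 0.1), averaged over the libraries, which understates differences of weakly expressed genes.

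The selection genes, described without a test, were present on both sides. Utf1, a chromatin-associated factor of pluripotent cells, had a level of 6.53 in positive and 4.85 in negative cells of replicate 1, and 5.95 and 5.07 in replicate 2. Nanog, the homeobox factor next to Dppa3, had 1.09 and 1.05, and 1.30 and 1.02. Tdh, threonine dehydrogenase, had 2.13 and 1.95, and 2.26 and 2.12. The Nodal co-receptor Tdgf1 was higher in positive cells of replicate 1 (4.16 against 3.79) and lower in those of replicate 2 (4.06 against 4.39). Dppa4, a chromatin factor, was higher in positive cells of replicate 1 (1.30 against 0.901) and alike in replicate 2 (1.15 against 1.16). All 5 selection genes were found in 80.0% of positive and 65.7% of negative paired cells of replicate 1 and in 69.4% and 69.9% of those of replicate 2, so in replicate 1 fewer negative cells met the whole selection.

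Across the transcriptome the groups were close. Of 6379 genes tested with limma, 0 differed at an adjusted p below 0.05 (0% of genes), and the smallest adjusted p was 0.15, that of AA467197. At an unadjusted p below 0.05, limma gave 177 genes higher (2.77%) and 386 lower (6.05%) in positive cells. The difference lay between -0.25 and 0.25 for 85.8% of genes, and 55.5% of genes had the same sign in both libraries. Of the 6379 genes, 1566 were higher and 1974 lower in both. The results for single genes below are thus levels and differences that did not pass the test over all genes, and the count of calls depended on the setting: 8 of 19 alternatives gave any call, up to 32 higher and 83 lower in the fit limited to cells under 40000 UMIs, where limma pooled the spread over all genes. In a test on simulated data at the same depths, 57% of genes changed 1.5-fold and 97% of those changed 2-fold were recovered. The simulated counts had Poisson error and a small added spread, without the spread between single cells of these data. These shares therefore do not show what the test could find here: AA467197, with a difference of 1.07, did not pass.

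Genes were also picked by size alone, on the scale of log2(level + 0.1). By this measure 4 genes were at least 1.5-fold higher in positive cells in both libraries (0.0627% of genes): Mael, Syce3, Lef1 and AA467197. Another 14 were at least 1.5-fold lower in both (0.219%): Tac2, Hmgn3, Gstm5, Mgp, Ly6a, Ccnd2, Apod, Vax2, Timp2, Grb10, Cd47, Cited2, Kdelr3 and Meg3. No gene was 1.5-fold apart in opposite directions on this scale (0 genes). Without the added 0.1 more genes would reach 1.5-fold in both libraries, among them Sycp3 (higher) and Fgfr1 (lower). The 18 genes picked on this scale were chosen after their values were seen.

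**Figure D2:**
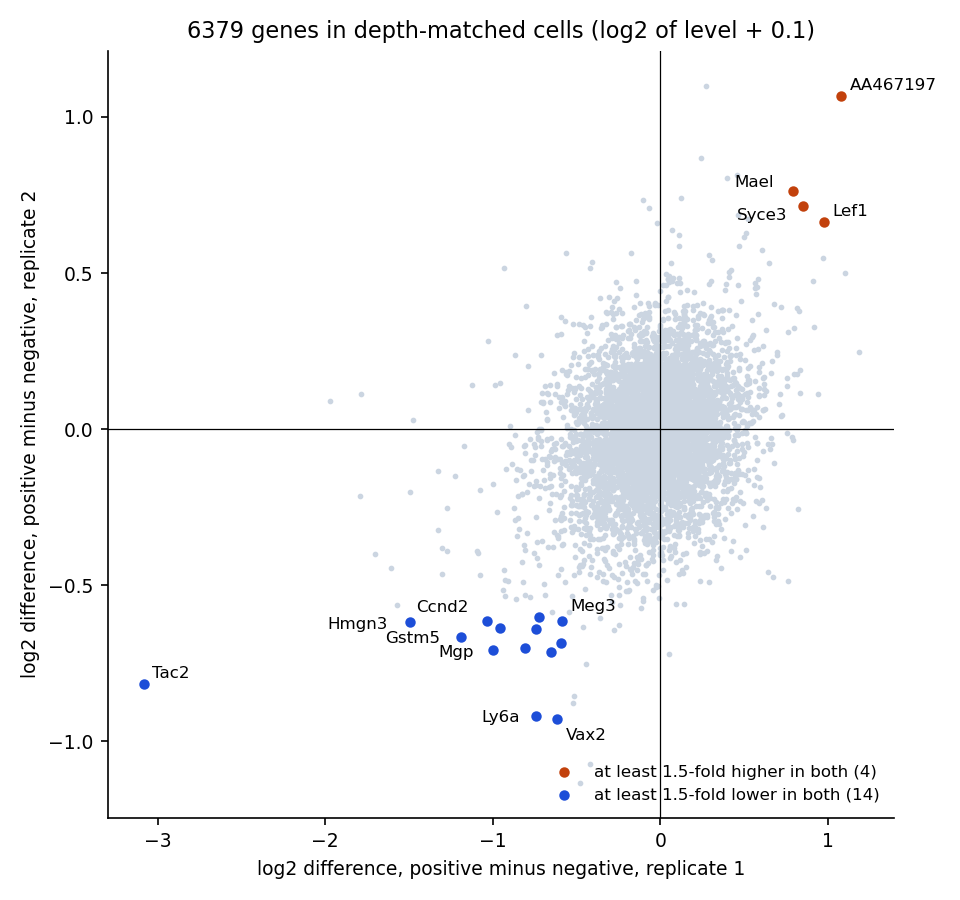
Log2 difference between Dppa3-positive and Dppa3-negative paired cells in replicate 1 (x axis) and replicate 2 (y axis), a point per gene for 6379 genes. On this scale the 4 orange genes lie at least 1.5-fold higher and the 14 blue genes at least 1.5-fold lower in both libraries. Most genes lie near 0 and show little relation between the libraries.

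Germline, oocyte and early embryo genes leaned towards the Dppa3-positive cells. Of 25 listed genes 12 were expressed highly enough to test, and the median difference was 0.30 against -0.01 over all genes. In both libraries 9 were higher and 1 lower, against 1566 and 1974 of all 6379 genes. At an unadjusted limma p below 0.05, 6 of the 12 were higher (50.0%, against 2.77% of all genes) and 0 lower (against 6.05%), and 0 passed the adjusted test. The 6 were Mael, Rhox9, Sycp3, Rhox6, Rhox5 and Tfap2c. This list, like those below, was chosen with earlier results of these data known, so its counts and shares are a description.

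Mael encodes a component of the piRNA pathway that silences transposons in male germ cells (chromosome 1, 166201201 to 166238747). Its level was 0.131 in positive and 0.0338 in negative cells of replicate 1, and 0.420 and 0.206 in replicate 2. The positive group was the higher of the pair in each library, although replicate 2 had more Mael in its negative cells than replicate 1 in its positive cells. The difference was 0.78 (SE 0.11, limma adjusted p 0.24, between 1.0e-04 and 1 over the alternatives). With cells thinned to 10000 UMIs, Mael was found in 57 of 171 positive cells of replicate 2 (33.3%, interval 26.3 to 40.9) and 16 of 169 negative cells (9.47%, 5.51 to 14.9). In replicate 1 it was found in 6 of 68 and 3 of 68 cells. Cells are not replicates, so such intervals do not test the groups, here or below. Without thinning the shares were 48.0% and 24.9% in replicate 2 and 26.5% and 7.35% in replicate 1. Cells without any selection gene gave 0 of 1634 cells in replicate 1, which allows up to 0.184%, and 0.322% in replicate 2, at median depths of 16267 and 15291 UMIs.

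Sycp3, a structural protein of the synaptonemal complex that joins chromosomes in meiosis (chromosome 10, 88459569 to 88473236), had levels of 0.117 and 0.0521 in positive and negative cells of replicate 1, and 0.489 and 0.281 in replicate 2. The difference was 0.57 (SE 0.12, limma adjusted p 0.25). The promoters of Mael and Sycp3 are shown because they are the list members with the largest differences that had a sequence in the table used, and because both hold the same pair of short motifs. The 250 bases before each start site are given 5′ to 3′ on the gene's strand, from RefSeq on GRCm38.p6, with capitals for CACGTG (an E-box) and for GCGGGA or its reverse complement TCCCGC.
Mael, chr1:166238745-166238994, minus strand: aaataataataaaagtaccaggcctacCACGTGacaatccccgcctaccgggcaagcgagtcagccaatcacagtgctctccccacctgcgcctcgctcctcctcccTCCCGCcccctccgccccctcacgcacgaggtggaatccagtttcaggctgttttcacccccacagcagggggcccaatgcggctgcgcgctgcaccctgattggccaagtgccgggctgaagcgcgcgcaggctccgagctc
Sycp3, chr10:88459337-88459586, plus strand: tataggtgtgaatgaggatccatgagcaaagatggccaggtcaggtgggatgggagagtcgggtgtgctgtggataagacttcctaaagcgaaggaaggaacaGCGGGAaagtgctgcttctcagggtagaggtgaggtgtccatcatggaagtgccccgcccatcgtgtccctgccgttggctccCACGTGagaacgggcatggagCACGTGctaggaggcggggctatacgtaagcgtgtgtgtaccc
Mael has 1 CACGTG and 1 TCCCGC in this window, and Sycp3 has 2 CACGTG and 1 GCGGGA. The E-box, which reads the same on both strands, was present in 3 of the 9 tested list members with a promoter sequence (Mael, Sycp3 and Hormad1), and GCGGGA on either strand in 4. Over all 32851 promoter windows of the same length the shares were 6.02% and 16.9%, and 1.45% held both. The motifs do not overlap each other. Hormad1, a meiotic chromosome axis gene whose promoter also held both, differed by only 0.11 (SE 0.14, limma adjusted p 0.86), with 0.101 and 0.113 in replicate 1 and 0.306 and 0.228 in replicate 2.

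The Rhox genes are X-linked homeobox genes expressed in reproductive tissues and in the early embryo. Rhox5 had levels of 1.49 and 0.890 in positive and negative cells of replicate 1, and 1.34 and 0.990 in replicate 2 (difference 0.54, SE 0.13, limma adjusted p 0.29). Rhox9 had 0.207 and 0.154, and 0.279 and 0.0769 (0.69, SE 0.19, limma adjusted p 0.40). Rhox6 had 0.392 and 0.315, and 0.306 and 0.122 (0.56, SE 0.16, limma adjusted p 0.42). For Rhox6 and Rhox9 the difference lay mainly in replicate 2 (0.87 and 1.10 there, 0.25 and 0.28 in replicate 1). A single cell gave 46.9% of Rhox6 and 50.5% of Rhox9 in the negative group of replicate 1. Rhox6 and Rhox9 are closely related in sequence, and reads may have been split between them. Rhox5 turned to -0.26 among cells with at least 2 Y-linked UMIs, where 18 and 69 pairs remained.

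Other members of the list differed less. Dazl, an RNA-binding protein of germ cells, had 0.280 and 0.286 in replicate 1 and 0.559 and 0.567 in replicate 2 (difference -0.02). Ooep, of the oocyte cortex, had 0.930 and 0.873, and 1.81 and 1.78 (0.05). Tex19.1, which restrains transposons in germ cells and pluripotent cells, had 0.609 and 0.429, and 0.492 and 0.457 (0.26). Tfap2c, a factor of primordial germ cells and trophoblast, had 0.244 and 0.218, and 0.290 and 0.160 (0.35, limma adjusted p 0.56). The summed level of the 25 genes had a median of 4.83 in positive and 2.55 in negative cells of replicate 1, and of 6.24 and 5.00 in replicate 2, given without a test.

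Some meiotic genes outside the list were picked because they were higher in positive cells, so their direction was fixed by the choice. Syce3, another synaptonemal complex component (chromosome 15, 89390174 to 89410503), had 0.179 and 0.0543 in replicate 1 and 0.316 and 0.153 in replicate 2 (difference 0.79, SE 0.12, limma adjusted p 0.24). Smc1b, a cohesin subunit of meiosis, had 0.547 and 0.267, and 0.941 and 0.696 (0.60, limma adjusted p 0.29). Rec114, needed for meiotic DNA breaks, had 0.808 and 0.411, and 0.954 and 0.712 (0.60, limma adjusted p 0.29). The differences of the 3 lay between 0.18 and 1.19 over all alternatives. Tdrd12, a piRNA pathway gene, had 0.271 and 0.149, and 0.417 and 0.277 (0.52, limma adjusted p 0.28). Of the 14 listed genes of the 2-cell-like state, in which stem cells resemble the earliest embryo, 2 were in the table and 0 reached the level for testing.

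AA467197 (chromosome 2, 122636986 to 122641191) had the largest positive difference of all genes, 1.07 (SE 0.11, limma adjusted p 0.15, between 4.3e-09 and 0.78 over the alternatives). Its level was 0.365 in positive and 0.120 in negative cells of replicate 1, and 0.403 and 0.140 in replicate 2. Here both positive groups lay above both negative groups. At 10000 UMIs it was found in 20.6% (11.7 to 32.1) and 13.2% (6.23 to 23.6) of the cells in replicate 1, and in 41 of 171 (24.0%) and 22 of 169 cells (13.0%) in replicate 2. The intervals of the groups overlapped in each library. Cells without a selection gene gave 2.69% and 4.67%.

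**Figure D3:**
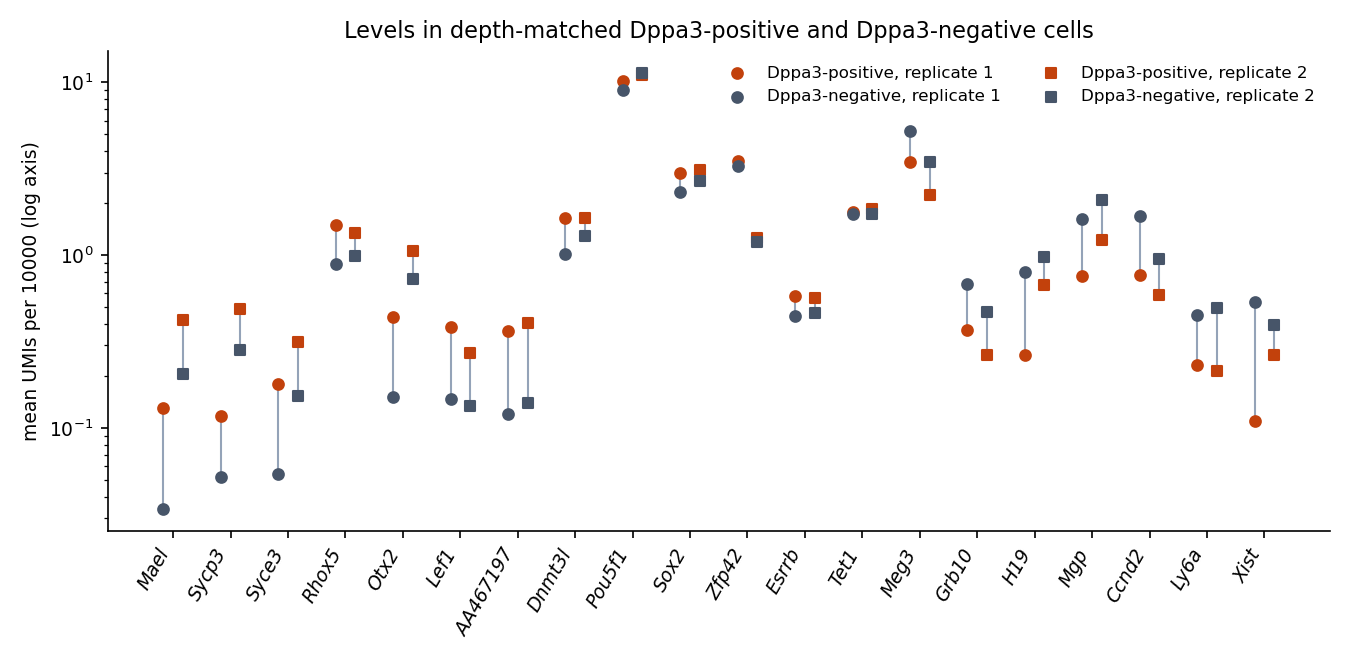
Mean level of 20 genes in Dppa3-positive (orange) and Dppa3-negative (grey) paired cells, on a log axis in UMIs per 10000, with circles for replicate 1 and squares for replicate 2. The genes from Mael to Dnmt3l at the left lie higher in positive cells, Pou5f1, Zfp42 and Tet1 nearly coincide, and the genes from Meg3 to Xist lie lower.

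Naive pluripotency factors were present on both sides, with Pou5f1 and Zfp42 near level in the mean and some others higher in positive cells. Of 15 naive pluripotency factors tested, 8 were higher in both libraries and 2 lower in both, against 1566 and 1974 of all 6379 genes. The median difference was 0.11, and 4 had an unadjusted limma p below 0.05, all higher (26.7%, against 2.77% of all genes). Pou5f1, the central factor and part of the cassette, had 10.2 in positive and 9.03 in negative cells of replicate 1, and 11.1 and 11.4 in replicate 2 (difference 0.07, SE 0.12, limma adjusted p 0.91). Zfp42, encoding REX1, had 3.51 and 3.27, and 1.25 and 1.19 (0.08, SE 0.11, limma adjusted p 0.88). The libraries differed in Zfp42 far more than the groups did. At 10000 UMIs Zfp42 was found in 86.8% of positive (76.4 to 93.8) and 72.1% of negative cells (59.9 to 82.3) of replicate 1, and in 64.9% (57.3 to 72.0) and 60.9% (53.2 to 68.3) in replicate 2. At full depth the shares were 95.6% and 76.5%, and 84.8% and 87.0%, so the libraries went in opposite directions. Cells without a selection gene gave 0.918% and 0.376% at 10000 UMIs.

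Klf2, Sox2 and Esrrb were among the naive factors with a low unadjusted p. Klf2, a Krüppel-like factor of ground-state cells, had 3.25 and 2.50, and 4.23 and 3.23 (difference 0.37, SE 0.11, limma adjusted p 0.44). Sox2 had 2.97 and 2.33, and 3.13 and 2.68 (0.28, SE 0.12, limma adjusted p 0.56). Esrrb, an orphan nuclear receptor of the naive network, had 0.580 and 0.442, and 0.562 and 0.465 (0.28, SE 0.12, limma adjusted p 0.56). Each of these was higher in positive cells of both libraries, by less than 1.5-fold. At 10000 UMIs Klf2 was found in 85.3% of positive (74.6 to 92.7) and 80.9% of negative cells (69.5 to 89.4) of replicate 1. In replicate 2 it was found in 95.9% (91.7 to 98.3) and 85.8% (79.6 to 90.7), and in 15.4% and 14.6% of cells without a selection gene. Esrrb was found in 41.2% (29.4 to 53.8) and 33.8% (22.8 to 46.3), and in 45.6% (38.0 to 53.4) and 35.5% (28.3 to 43.2), with overlapping intervals, against 0.551% and 0.591%. Its shares at full depth were 80.9% and 55.9%, and 74.9% and 60.9%. Where all 5 selection genes were required, Klf2, Sox2 and Esrrb came to 0.15, 0.11 and 0.06. Among cells with at least 2 Y-linked UMIs they came to -0.05, 0.21 and 0.05. Klf4 had opposite signs in the libraries (0.57 and -0.23), and Fgf4, a growth factor that drives exit from the naive state, had 0.678 and 0.404, and 0.940 and 0.893 (0.35, limma adjusted p 0.58).

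Among 16 other pluripotency-associated genes, 11 were higher in both libraries and 1 lower in both, against 1566 and 1974 of all 6379 genes. The median was 0.11, and 1 gene had an unadjusted limma p below 0.05 (6.25%, against 2.77% of all genes). It was Fbxo15, an F-box gene long used as a reprogramming reporter, with 0.615 and 0.455, and 0.727 and 0.535 (difference 0.37, SE 0.11, limma adjusted p 0.44). Dppa5a, the most abundant gene of the list, had 41.0 and 35.0, and 51.1 and 45.2 (0.20, SE 0.11, limma adjusted p 0.65). Dppa2, the partner of Dppa4, had 0.473 and 0.396, and 0.521 and 0.409 (0.25, limma adjusted p 0.58), and Jarid2 and Zscan10 differed by 0.25 and 0.30. None of the 16 passed the adjusted limma test (0 genes, and 1 at an unadjusted p below 0.05).

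Formative and primed genes, which come on as cells leave the naive state, were not lower in Dppa3-positive cells. Of 10 tested, 5 were higher in both libraries and 2 lower in both, against 1566 and 1974 of all 6379 genes. The median was 0.13, and 3 had an unadjusted limma p below 0.05, all higher (3 of 10, against 2.77% of all genes). Otx2, the homeobox factor of the formative transition (chromosome 14, 48657677 to 48673819), had 0.437 and 0.150 in replicate 1, and 1.06 and 0.723 in replicate 2 (difference 0.80, SE 0.16, limma adjusted p 0.25, between 6.0e-05 and 1 over the alternatives). At 10000 UMIs Otx2 was found in 30.9% of positive cells (20.2 to 43.3) and 10.3% of negative cells (4.24 to 20.1) of replicate 1, and in 56.7% (48.9 to 64.3) and 48.5% (40.8 to 56.3) in replicate 2. These intervals cover counting error among cells, which are not replicates. Cells without a selection gene gave 0 of 1634 cells and 0.376%.

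Lef1, a nuclear effector of Wnt signalling (chromosome 3, 131110471 to 131224356), had 0.384 and 0.146, and 0.271 and 0.134 (difference 0.82, SE 0.13, limma adjusted p 0.24). Both positive groups lay above both negative groups, and the difference lay between 0.22 and 1.10 over the alternatives. Pim2, a kinase gene, had 0.157 and 0.0442, and 0.139 and 0.110 (0.51, limma adjusted p 0.46). Dnmt3b, a de novo DNA methyltransferase, had 0.806 and 0.423 in replicate 1 but 0.503 and 0.518 in replicate 2 (0.38, limma adjusted p 0.61), so its difference rested on replicate 1.

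Since DPPA3 protein acts on DNA methylation, the methylation machinery was described as a list. Of 14 genes tested, 5 were higher in both libraries and 2 lower in both, against 1566 and 1974 of all 6379 genes. The median was 0.07, and 1 was higher and 1 lower at an unadjusted limma p below 0.05 (7.14% each, against 2.77% and 6.05% of all genes). Dnmt3l, the cofactor of de novo methylation in germ cells, had 1.63 and 1.02, and 1.63 and 1.29 (difference 0.47, SE 0.13, limma adjusted p 0.38). Uhrf1, which guides maintenance methylation, had 1.09 and 1.18, and 0.939 and 1.11 (-0.17, SE 0.12, limma adjusted p 0.72), and its relative Uhrf2 had 0.168 and 0.215, and 0.182 and 0.250 (-0.27, SE 0.12, limma adjusted p 0.56). Tet1, the dioxygenase that oxidises methylcytosine, had 1.77 and 1.72, and 1.86 and 1.73 (0.07, SE 0.12, limma adjusted p 0.90).

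Imprinted genes, expressed from the maternal or the paternal copy alone, were split. Of 10 tested, 4 were higher in both libraries and 4 lower in both, against 1566 and 1974 of all 6379 genes. The median was -0.04, and at an unadjusted limma p below 0.05 there was 1 higher and 3 lower (3 of 10, against 6.05% of all genes). The 3 were H19, Grb10 and Meg3. Meg3, the maternally expressed non-coding RNA of the Dlk1-Dio3 cluster (chromosome 12, 109541001 to 109571726), had 3.45 in positive and 5.23 in negative cells of replicate 1, and 2.22 and 3.45 in replicate 2 (difference -0.60, SE 0.11, limma adjusted p 0.25, between 1.8e-04 and 1 over the alternatives). Grb10, a growth-restraining adaptor (chromosome 11, 11930508 to 12038683), had 0.367 and 0.681, and 0.264 and 0.468 (-0.69, SE 0.12, limma adjusted p 0.24). Neither rested on few cells: the highest single cell gave at most 8.18% of the summed level of Meg3 and 8.43% of that of Grb10 in any group.

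At 10000 UMIs Meg3 was found in 76.5% of positive (64.6 to 85.9) and 91.2% of negative cells (81.8 to 96.7) of replicate 1, and in 54.4% (46.6 to 62.0) and 63.9% (56.2 to 71.1) in replicate 2. Cells without a selection gene gave 94.6% and 65.1%, so the negative cells lay closer to them. The mean level of Meg3 outside the selected cells was 22.9 and 10.9, well above either group. H19, a maternally expressed RNA next to Igf2 (chromosome 7, 142575529 to 142578143), had 0.264 and 0.797, and 0.675 and 0.970 (difference -0.88, SE 0.19, limma adjusted p 0.27). Single cells gave 36.6% of H19 in the negative group of replicate 1 and 44.1% in the positive group of replicate 2. The share of cells with an H19 UMI at 10000 UMIs was lower in positive cells of replicate 1 (16.2% against 25.0%) and higher in those of replicate 2 (26.9% against 16.0%). Mest, a paternally expressed gene, had 0.272 and 0.147, and 0.221 and 0.199 (0.35, limma adjusted p 0.56).

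**Figure D4:**
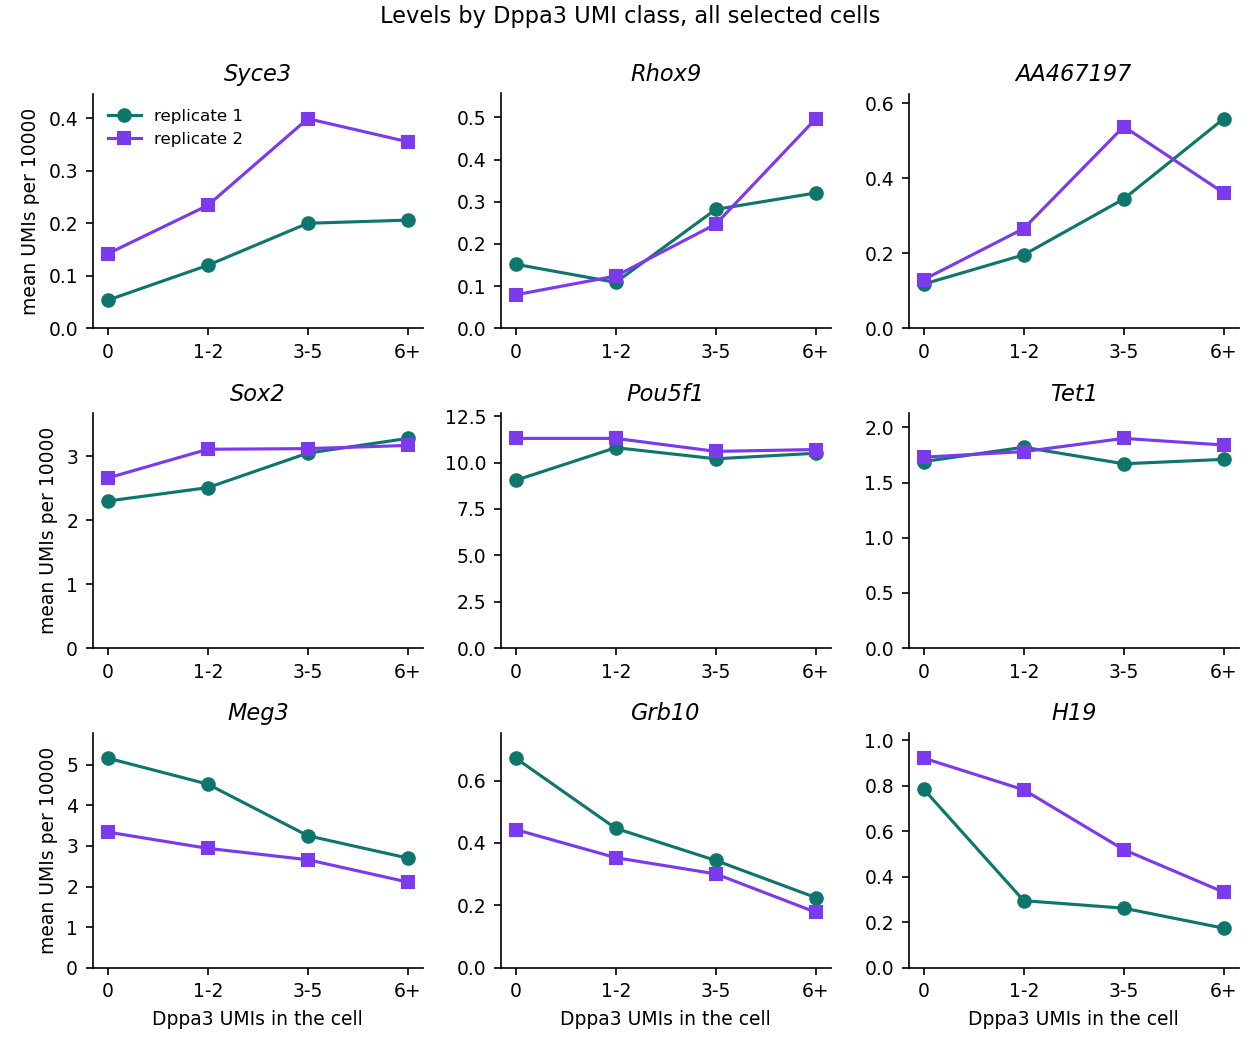
Mean level of 9 genes in UMIs per 10000 (y axes from 0) in all selected cells grouped by their Dppa3 UMIs (x axis), for replicate 1 (circles) and replicate 2 (squares). Meg3, Grb10 and H19 step down across the classes in both libraries, while Pou5f1 and Tet1 stay nearly level.

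The same genes were followed across the amount of Dppa3 RNA, in all selected cells without pairing and as a description, since these classes use the same cells. Cells with 0, 1 to 2, 3 to 5 and 6 or more Dppa3 UMIs numbered 71, 31, 36 and 22 in replicate 1 and 186, 105, 56 and 50 in replicate 2, and their median depth went from 27070 to 31624 and from 24080 to 29514 UMIs between the first and the last class. Meg3 went through 5.16, 4.52, 3.25 and 2.70 in replicate 1 and 3.34, 2.94, 2.66 and 2.11 in replicate 2. Grb10 went through 0.672, 0.447, 0.344 and 0.225, and 0.443, 0.353, 0.301 and 0.178. Both stepped down at each class in both libraries.

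On the other side, Sox2 stepped up slightly at each class, from 2.30 to 3.28 and from 2.66 to 3.17. AA467197 went from 0.118 to 0.559 in replicate 1, and in replicate 2 from 0.130 to 0.538 at 3 to 5 UMIs and 0.361 at 6 or more. Syce3 went from 0.0536 to 0.206 and from 0.142 to 0.355, with the class of 3 to 5 UMIs at 0.200 and 0.399. Mael went up through 0.214, 0.401, 0.467 and 0.609 in replicate 2 but was at 0.0562 in the highest class of replicate 1, which has 22 cells. Pou5f1 stayed within 9.04 to 10.8 in replicate 1 and 10.6 to 11.3 in replicate 2, with no order shared by the libraries.

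Signalling genes of the Nodal, BMP and FGF-ERK pathways leaned to the negative cells. Of 11 tested, 3 were higher and 7 lower in both libraries, against 1566 and 1974 of all 6379 genes. The median was -0.28, and 4 had an unadjusted limma p below 0.05, all lower (36.4%, against 6.05% of all genes). Fgfr1, an FGF receptor, had 0.243 and 0.453, and 0.216 and 0.356 (difference -0.61, SE 0.12, limma adjusted p 0.25). Egr1, an immediate-early target of ERK, had 0.226 and 0.384, and 0.237 and 0.373 (-0.53, SE 0.12, limma adjusted p 0.27). Fos, another immediate-early gene, had 0.227 and 0.448, and 0.479 and 0.503 (-0.40, limma adjusted p 0.56), and Lefty1, a Nodal antagonist, had 0.196 and 0.307, and 0.495 and 0.616 (-0.36, limma adjusted p 0.48). With at least 4 selection genes required, Egr1 came to -0.11 and Fos to 0.17, and with all 5 required Lefty1 came to 0.29. Single cells gave 34.1% of Lefty1 in the positive and 42.2% in the negative group of replicate 1, and 15.4% and 23.9% in replicate 2.

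The genes at least 1.5-fold lower in both libraries on the log2(level + 0.1) scale were chosen after their values were seen. They differed in their level outside the selection. Mgp had 22.8 and 22.9 there and Ly6a 4.94 and 4.28, above both groups, whereas Vax2 had 0.0487 and 0.0435, below the negative cells. Tac2, encoding neurokinin B, had 0.0134 and 0.860 in replicate 1, and 0.0225 and 0.116 in replicate 2 (difference -1.95, SE 0.43, limma adjusted p 0.27). This rested on few molecules and cells, and its size depends on the 0.1 added to the level. Positive cells held 3 and 9 Tac2 UMIs against 143 and 30 in negative cells, and a single cell gave 79.8% of the level in the negative group of replicate 2. Mgp, matrix Gla protein, had 0.754 and 1.61, and 1.23 and 2.08 (-0.85, SE 0.13, limma adjusted p 0.24). Ccnd2, cyclin D2, had 0.769 and 1.68, and 0.587 and 0.951 (-0.82, SE 0.14, limma adjusted p 0.24). Both were lower in positive cells of each library.

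Ly6a, the surface protein SCA-1 of many somatic progenitors, had 0.230 and 0.452, and 0.213 and 0.492 (difference -0.83, SE 0.12, limma adjusted p 0.24). Hmgn3, a nucleosome-binding protein, had 0.0696 and 0.377, and 0.102 and 0.211 (-1.06, SE 0.20, limma adjusted p 0.25), and Gstm5, a glutathione transferase, had 0.168 and 0.512, and 0.230 and 0.424 (-0.93, SE 0.15, limma adjusted p 0.24). With at least 4 selection genes required, these 3 came to -0.14, -0.43 and -0.11, and Apod, a lipid carrier, came to 0.01 from -0.80. Single cells gave 36.9% of Ly6a and 51.9% of Apod in the negative group of replicate 1. The homeobox gene Vax2 (0.106 and 0.216, and 0.0802 and 0.243) and the transcriptional co-regulator Cited2 (0.218 and 0.424, and 0.303 and 0.512) came to -0.89 and -0.69, from -0.77 and -0.66.

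Markers of other cell types were checked over whole lists. Of 15 fibroblast markers 7 were tested, all 7 lower in positive cells of both libraries, against 1974 of all 6379 genes. The median was -0.44, with 6 at an unadjusted limma p below 0.05 (85.7%, against 6.05% of all genes). The summed level of the list had medians of 3.33 in positive and 4.07 in negative cells of replicate 1, and 2.25 and 2.57 in replicate 2, against 21.1 and 14.1 in the cells outside the selection. The highest cell had 7.41 among positive and 36.6 among negative cells of replicate 1, with lowest values of 0.680 and 0.477. In replicate 2 the highest were 32.3 and 101 and the lowest 0. Each listed marker had at least 1 UMI in the paired cells.

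**Figure D5:**
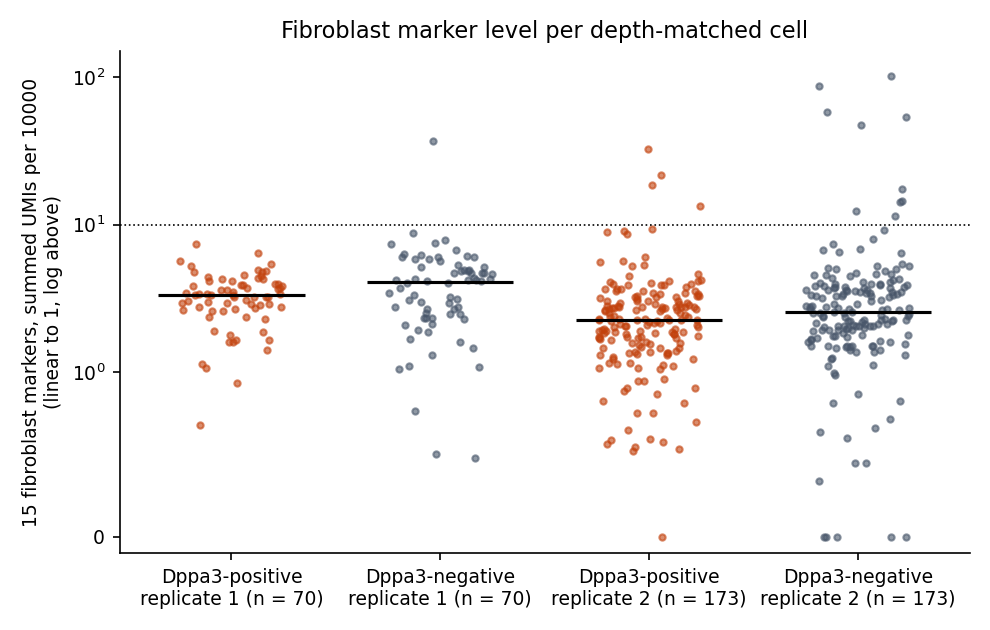
Summed level of the 15 fibroblast markers in each paired cell, in UMIs per 10000 (linear up to 1, log above), with a bar at the median of each group. The dotted line is at 10: 0 positive and 1 negative cell of replicate 1 and 4 positive and 10 negative cells of replicate 2 lie above it, while the bulk of the groups overlaps.

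The collagens belong to the summed list, so leaving out cells with a high sum lowers their differences by construction. Col1a1 had 0.413 and 0.633, and 0.310 and 0.641 (difference -0.69, limma adjusted p 0.25), Col1a2 had 0.708 and 0.982, and 0.581 and 1.33 (-0.75, limma adjusted p 0.27), and Col3a1 had 0.118 and 0.204, and 0.144 and 0.435 (-0.81, limma adjusted p 0.25). Among cells with no Y-linked UMI the 3 collagens differed by 0.15, -0.02 and -0.42, in the same order. With at least 2 Y-linked UMIs they differed by -1.42, -0.93 and -0.80. Cells with more than 10 fibroblast-marker UMIs per 10000 were then left out, whatever their Y-linked UMIs, and the rest paired again. The collagens came to -0.09, -0.10 and -0.06, and the list's median to -0.10. Zeb1, a mesenchymal repressor of epithelial genes, came to -0.39 from -0.44.

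The differences of the listed germline and formative genes Mael (0.76), Lef1 (0.78) and Otx2 (0.83) were about as large without those cells. So were those of Syce3 (0.78) and AA467197 (1.13), which are in neither list and were named after their values were seen. Grb10 and Meg3 came to -0.62 and -0.50, Mgp to -0.47 and H19 to -0.57. No caller of doublets was run here, and the sources used do not state whether doublets had been removed.

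The other lists held little. Of 11 epithelial markers 6 were tested with a median of 0.02. Cldn4, a tight-junction claudin, had 0.338 and 0.267, and 0.393 and 0.273 (difference 0.33, limma adjusted p 0.50), while Krt18, a keratin of simple epithelia, had opposite signs in the libraries (-0.71 and 0.24). Of 7 macrophage markers 1 was tested, Cd68 (-0.31), and 2 had no UMI in the paired cells. Of 8 neural, 13 primitive endoderm and 10 trophoblast markers 2 each were tested, with medians of -0.13, -0.28 and 0.30, among them Ncam1 (-0.22), Col4a2 (-0.37) and Ascl2 (0.26). Summed medians of the macrophage list were 0 in all 4 groups, and the part of these cell types in the results was not tested.

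Cell-cycle genes had medians near 0, with those of G2 and M phase leaning lower. Of 18 S-phase genes, 5 were higher and 4 lower in both libraries, with a median of 0.03. Of 20 genes of G2 and M phase, 0 were higher and 9 lower in both, with a median of -0.09. Over all genes the counts were 1566 and 1974 of 6379. At an unadjusted limma p below 0.05, 1 S-phase gene (5.56%) and 1 gene of G2 and M phase (5.00%) were lower. These shares were near the 6.05% of all genes. The 1 S-phase gene was Gins2, of the replicative helicase (-0.31, limma adjusted p 0.51), against Mcm5 of the same machinery at 0.27 (limma adjusted p 0.59). The mitotic kinase gene Aurka differed by -0.29 (limma adjusted p 0.55) and the spindle gene Nusap1 by -0.26 (limma adjusted p 0.57). Ribosomal protein genes (96 tested) had a median of 0.02 and mitochondrially encoded genes (12 tested) of -0.06.

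The study is concerned with dosage of the X chromosome, so the X was compared between the groups. Over 214 X-linked genes the median difference was 0.00, with 15 higher (7.01%, against 2.77% of all genes) and 13 lower (6.07%, against 6.05%) at an unadjusted limma p below 0.05. The ratio of the median X-linked to the median autosomal level was 1.05 in positive and 1.09 in negative cells of replicate 1, and 1.26 and 1.14 in replicate 2. The difference was -0.0372 and 0.123, a mean of 0.0430 ± 0.113 (SD, n = 2; exact two-sided sign-flip p = 1, where 2 libraries cannot give less than 0.5), and in the fit as designed it was smaller than the spread between the libraries. It was positive in both libraries without matching (0.0598 ± 0.00506), with cells thinned to 10000 UMIs (0.148 ± 0.152), matched on detected genes (0.0706 ± 0.0684), and with at least 2 (0.0859 ± 0.0625) or 3 Dppa3 UMIs (0.116 ± 0.0662), each with an exact sign-flip p of 0.5 (SD, n = 2). With all 5 selection genes it was also positive in both (0.0390 ± 0.00245). Replicate 1 was negative, and replicate 2 positive, with at least 4 selection genes (-0.0792 in replicate 1) and a mean of at least 0.5 (-0.0199). The same held with no minimum (-0.0647), summed UMIs (-0.0493) and cells under 40000 UMIs (-0.0450). It also held without cells over 10 fibroblast-marker UMIs per 10000 (-0.0470). Both groups mixed cells that had Y-linked RNA with cells that had none. At least 2 Y-linked UMIs were found in 38.6% of positive (27.2 to 51.0) and 28.6% of negative cells (18.4 to 40.6) of replicate 1, and in 31.8% (24.9 to 39.3) and 42.2% (34.7 to 49.9) in replicate 2. Among cells with no Y-linked UMI the mean difference in the ratio was 0.0410 ± 0.0316, and among cells with at least 2 it was 0.0380 ± 0.00514 (SD, n = 2 each). Both were positive in each library, with 0.0634 and 0.0187 for no Y-linked UMI and 0.0344 and 0.0416 for at least 2. The part of Y-linked RNA in the signs of the unsplit ratio was not tested.

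Xist, whose RNA covers the silenced X in female cells (chromosome X, 103460366 to 103483254), had 0.109 and 0.538 in replicate 1, and 0.264 and 0.394 in replicate 2 (difference -1.03, SE 0.24, limma adjusted p 0.30, between 2.9e-05 and 1 over the alternatives). The shares of cells with an Xist UMI at 10000 UMIs overlapped within counting error, with 11.8% of positive (5.22 to 21.9) and 13.2% of negative cells (6.23 to 23.6) in replicate 1, and 12.3% (7.77 to 18.2) and 11.8% (7.38 to 17.7) in replicate 2. At full depth Xist was found in 17.6% of positive and 22.1% of negative cells, then 23.4% and 22.5%, against 51.8% and 54.2% in cells without a selection gene. Single cells gave between 19.9% and 29.7% of the Xist level in each of the 4 groups. The sign turned when at least 4 or all 5 selection genes were required (0.43 and 0.38) and among cells with at least 2 Y-linked UMIs (0.19). The antisense gene Tsix differed by -0.05 (limma adjusted p 0.94), and since no source used here states strand-aware counting, its reads and those of Xist may be mixed.

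Genes around Dppa3 were described because Dppa3, Nanog and Gdf3 lie in a cluster of pluripotency genes. Of 17 genes of the table that start within 500 kb of Dppa3, 6 were tested beside the selection gene Nanog, and all 6 were slightly higher in positive cells of both libraries, with differences between 0.11 and 0.20, a median of 0.15, and 0 at an unadjusted limma p below 0.05. Over all genes, 1566 of 6379 were higher and 1974 lower in both libraries, and the median was -0.01. Gdf3 (chromosome 6, 122605403 to 122610087) had 0.944 and 0.780, and 0.728 and 0.709 (0.14, SE 0.12, limma adjusted p 0.78). Slc2a3, a glucose transporter gene, had 2.78 and 2.15, and 2.54 and 2.53 (0.18, SE 0.13, limma adjusted p 0.73).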

How the data were processed

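Droplet 3' RNA-seq (10x Chromium V2) of 2 libraries was used. Per the study's methods and the submitters' processing notes, the authors counted reads with Cell Ranger (version 2.1.1, mm10 reference 1.2.0) and used Seurat (version 3.1.2), keeping cells with more than 1500 and fewer than 6000 genes and under 9% mitochondrial RNA. The authors deposited natural log values, ln(1 + UMIs per 10000). After undoing the log every cell totalled 10000, and 100.0000% of values above 0 were whole multiples of the cell's smallest value within 0.01, so UMIs were recovered: 54145377 and 64654306 in all, with medians of 15625 and 14292 per cell and single cells between 4753 and 60990. Genes were placed with GENCODE M21 (16782 genes) and RefSeq synonyms (430) on GRCm38, the assembly of mm10, and 196 had no place.

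Cells with a value above 0 for at least 3 of 5 selection genes were taken. Positive and negative cells were paired within a library on UMIs (optimal assignment, at most 0.25 log2 units apart). The profile of a group was the mean over its cells of UMIs per 10000, and log2(mean + 0.1) of the 4 profiles was fitted with limma (version 3.58.1, R version 4.3.3) with terms for group and library and Benjamini-Hochberg adjustment at 0.05, for the 6379 genes with a mean of at least 0.1. The library pairs the positive and negative profiles, which come from the same cell suspension. Libraries are the replicates and cells are not. Unless the libraries are separate cultures, p-values measure the spread between these samples alone. The test was tried on simulated profiles of 6379 genes first, with Poisson error and a small added spread but no spread between cells. Besides the shares given with the results, 1.91% of its calls were unchanged genes. Shares of cells carry exact (Clopper-Pearson) 95% intervals, 0 cells found was taken to allow up to 3, and thinning drew 10000 UMIs per cell, leaving out shallower cells (2 to 4 per group of paired cells, and 423 and 644 cells without a selection gene). Other steps ran in Python 3.11.15 with pandas 2.3.3, scipy 1.17.1, numpy 2.4.6 and matplotlib 3.10.9.

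Named genes were Dppa3 and the selection genes, genes past the threshold (none passed in the fit as designed), up to 4 members of each list with the largest differences, further members of some lists, Xist, Tsix and genes near Dppa3. The genes 1.5-fold apart in both libraries, Smc1b, Rec114, Tdrd12 and the less changed germline genes were named after their values were seen. The members, the lists and the rule were chosen with earlier results of these data known. A result that needs a withheld item is not reported here.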

Additional observations from a re-analysis of the deposited data

How the results depend on the processing

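With limma's designed fit, 0 genes passed (563 at an unadjusted p below 0.05). Genes higher and lower in positive cells numbered 23 and 49 without matching, 15 and 39 matched on detected genes, 15 and 20 with a mean of at least 0.5, 27 and 48 centred on the median, 32 and 83 under 40000 UMIs, and 0 and 2 with a pseudocount of 1. Among alternatives chosen after seeing the data they numbered 31 and 51 with at least 3 Dppa3 UMIs and 30 and 66 with the spread trended on the level, and the third, without cells over 10 fibroblast-marker UMIs per 10000, gave 0. The other alternatives gave 0, among them the fit with no replicate block (no pairing by library), with 253 genes at an unadjusted p below 0.05. The cause of these differences was not tested. The mean share of Dppa3-positive cells was 40.2% at 10000 and 26.5% at 4500 UMIs and 58.1% with at least 4 or all 5 selection genes, and ranged from 53.1% to 55.6% leaving out a library. The X-to-autosome difference ranged from -0.0372 to 0.123 leaving out a library and from 0.00213 to 0.148 over the other alternatives. Of 71 named genes, 21 turned sign under an alternative. With at least 4 selection genes these were Zfp42 (-0.02), Pou5f1 (-0.08), Klf4 (-0.00), Tet1 (-0.10), Fos (0.17), Krt18 (0.31), Xist (0.43), Tsix (0.06) and Apod (0.01). With all 5 they were Zfp42 (-0.02), Pou5f1 (-0.11), Klf4 (-0.05), Dppa5a (-0.02), Tet1 (-0.09), Lefty1 (0.29), Krt18 (0.39), Xist (0.38) and Hormad1 (-0.09). With at least 2 Y-linked UMIs they were Rhox5 (-0.26), Klf2 (-0.05), Pou5f1 (-0.05), Dppa2 (-0.09), Dppa5a (-0.02), Tet1 (-0.19), Lefty1 (0.31), Cldn4 (-0.06), Ncam1 (0.05), Tfap2c (-0.07), Xist (0.19), Apod (0.10), Slc2a3 (-0.09) and Hormad1 (-0.09). Thinning turned Tet1 (-0.15), Lefty1 (0.08), Cd68 (0.07) and Hormad1 (-0.07), no Y-linked UMI turned Col1a1 (0.15), at least 3 Dppa3 UMIs Zfp42 (-0.00) and at least 2 Pou5f1 (-0.00). Leaving out a library, values ranged from -0.04 to 0.79 for Dnmt3b, -0.03 to 0.17 for Pou5f1, -0.23 to 0.57 for Klf4, -0.71 to 0.24 for Krt18, -0.17 to 0.06 for Tsix and -0.09 to 0.31 for Hormad1. With 2 libraries, a difference carried by either cannot be told from the library.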
